A study of Oryza sativa with 2 samples.

Results

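The CCCH zinc finger genes of rice, numbered as the C3H family, were followed in leaves of seedlings that carried an OsEATB transgene and in leaves of nontransgenic seedlings. A gene was a member if its symbol or a synonym in the rice gene table was C3H with a number, with or without the prefix Os. The rule found 53 genes, and 50 of them had a probe set on the array, out of 17905 genes with one. C3H38, C3H56 and C3H67 had none and were not analysed here. The rule used names only and no measured value. Of the 50 genes, 38 were at or above the 75th percentile of probe sets on an array, as were 10554 of the 17905 genes. Most members, like most genes, differed by under 1.5-fold between the groups. The 3 ratios past 2-fold, of C3H10, C3H40 and C3H39, belonged to dim probe sets.

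All plants were of the indica cultivar 9311 and were grown at 28 °C in half-strength Murashige and Skoog medium with 14 h of light and 10 h of darkness. The sample titles give normal conditions for both groups. OsEATB is a factor of the ERF family, and the labels give neither the promoter that drove the transgene nor the number of transgenic lines. Each group was measured on 1 array with leaf RNA of 10 seedlings at the 4-leaf stage, so no difference between the groups could be tested, and none carries an error. The small number of arrays limits how precise any value is.

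A CCCH finger is a short fold in which cysteines and a histidine hold a zinc ion. Many proteins with such fingers bind RNA: in animals the best known bind AU-rich elements and hasten the decay of the messenger, and others act in splicing. In plants, members of the family have been tied to leaf senescence, flowering time, hormone responses, drought and salt stress, and defence.

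Values are log2 signals as deposited, on a scale that the authors' processing set to the same trimmed mean on both arrays. Signals below the 40th percentile of an array (4.41 nontransgenic, 4.61 transgenic) were treated as a floor, and a ratio with 1 side at the floor is a lower bound. A gene passed the level filter if a probe set reached the median of its array (5.16 and 5.32) on at least 1 array, and its brightest passing probe set stood for it. A ratio is the transgenic minus the nontransgenic log2 value, and a gene was called at 2-fold or more. Signals of different probe sets do not rank transcripts by amount, because probe sets differ in how well they bind.

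OsEATB was matched by none of the names used, so the targeted gene gave no check of the labels. Of 7 leaf marker genes with a probe set, such as those of the Rubisco small subunit, chlorophyll-binding proteins and plastocyanin, 6 had log2 signals of 13.82 or more on both arrays. The other was RBCS1, a further Rubisco small subunit gene, at the floor on both arrays with 2.09 and 3.54. Of 3 root marker genes 1 passed the filter (Lsi1, a silicon channel, at 8.62 and 9.57), and of 5 seed storage genes 2 passed, GLB1 at 12.27 and 11.87 and GLUA2 at 10.96 and 11.23. The part of other tissues in the ratios was not tested. The 18 probe sets of the hybridisation controls were brighter on the transgenic array, with a median log2 difference of 0.89, and the scale therefore rests on the authors' scaling and not on these controls.

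Of the 50 measured C3H genes, 43 passed the level filter (86%, beside 84.8% of all genes with a probe set). C3H10 and C3H40 were called higher in transgenic leaves, C3H39 was called lower, and the other 40 were not called. Over all 15192 genes that passed, 10.5% were called, 6.04% higher and 4.43% lower, and among the members it was 3 of 43 (6.98%), a smaller share that was not tested. Higher genes were 57.7% of all genes called, and 43% after lowess centring on brightness, which left the members' calls as they were. In RNA of whole leaves, fewer cells of a type and less RNA per cell cannot be told apart. Without the level filter the same 3 genes were the ones called among 50, beside 8.81% of all genes.

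**Figure D1:**
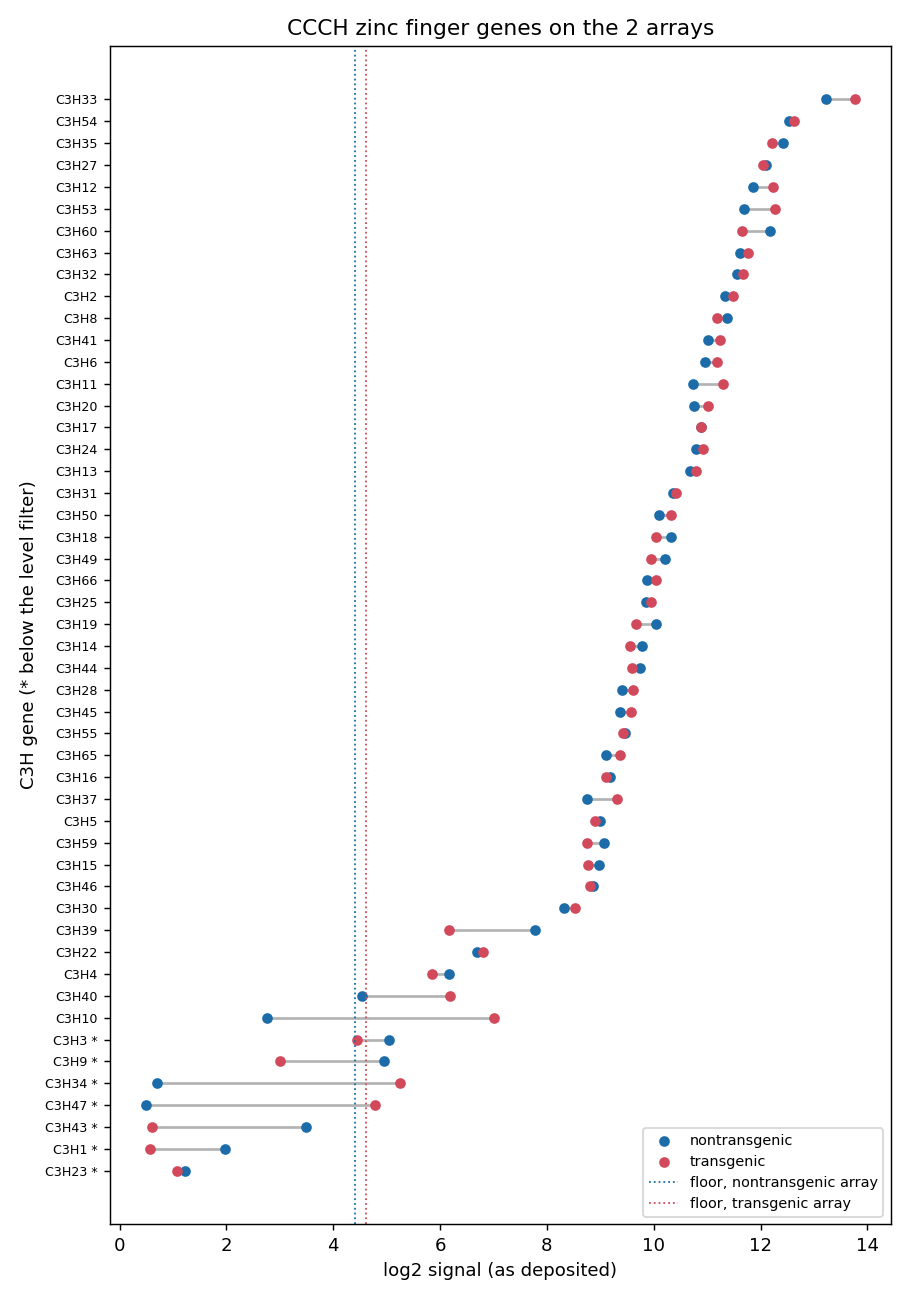
Log2 signal (horizontal axis, as deposited) of the 50 measured C3H genes (vertical axis, ordered by mean signal) on the nontransgenic (blue) and transgenic (red) array, with 1 array per group and no error bars. Most pairs of points lie close together, the gaps open among the dim genes, and dotted lines mark the floor of each array.

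Among the 43 members that passed the filter, C3H10 had the largest ratio. In rice, overexpression of this gene has been reported to raise drought tolerance. Its log2 signal was 2.76 in nontransgenic leaves, below the floor, and 7.01 in transgenic leaves. With this floor and the authors' scaling, transgenic leaves were at least 6.03-fold higher, a log2 ratio of at least 2.59. The brightest of the array's 64 reporter probe sets read 5.99 in nontransgenic and 6.54 in transgenic leaves. C3H10 lay below that level in the former and, at 7.01, not far above it in the latter. Its bound therefore also rests on signals near background and on the floor chosen. A floor at the reporter level was not tried. The log2 ratio was 1.85 with the floor at the median, 2.05 with a pseudocount of 32 and 1.69 with lowess centring. Without a floor it was 4.25, and C3H34 and C3H47, which did not pass the filter, had 4.55 and 4.30. C3H10 passed the filter through the transgenic array alone, so a difference was built into its passing.

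C3H40 stood at 4.53 in nontransgenic and 6.19 in transgenic leaves, 3.16-fold higher in the latter. Its nontransgenic signal lay just above the floor, and both signals were below the brightest of the array's 64 reporter probe sets, at 5.99 and 6.54, so the fold rests on signals near background. It too passed through the transgenic array alone. With a pseudocount of 32 added to the linear signals in place of the floor, its log2 ratio was 0.93, under the 2-fold threshold.

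C3H39 passed on both arrays. It stood at 7.78 in nontransgenic and 6.16 in transgenic leaves, 3.07-fold lower in the latter, with a log2 ratio of -1.62. Its transgenic signal was below the brightest reporter probe set of that array. It was the 1 member of the family called lower.

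The 3 called genes were read by 1 probe set each, so no other probe set of the same gene could be set beside them. Over all genes with several passing probe sets, the scatter of a log2 ratio between probe sets of 1 gene (root mean square difference divided by the square root of 2) was 0.74 in the dimmest of 3 equal groups, 0.54 in the middle group and 0.41 in the brightest. The mean signals of C3H10, C3H39 and C3H40, at 4.88, 6.97 and 5.36, fell in the dimmest range. That range also held C3H65, with a mean of 9.24, so its scatter is averaged over brighter genes too. The scatter at the level of the called genes was not computed. This scatter lies within the arrays and leaves out the spread between plants and between hybridisations.

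The members were also read by brightness. Among the 38 members at or above the 75th percentile on either array (8.45 and 8.38), 0 were called, where 4.82% of 10554 genes at that level were. Among the 5 members between the median and the 75th percentile, 3 were called, where 23.3% of 4638 such genes were. C3H10 and C3H40, 2 of these 3, entered through the array on which they are brighter, so nothing is read from this count. The other 2 of these dim members were C3H4, at 6.16 and 5.85, and C3H22, at 6.68 and 6.79.

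**Figure D2:**
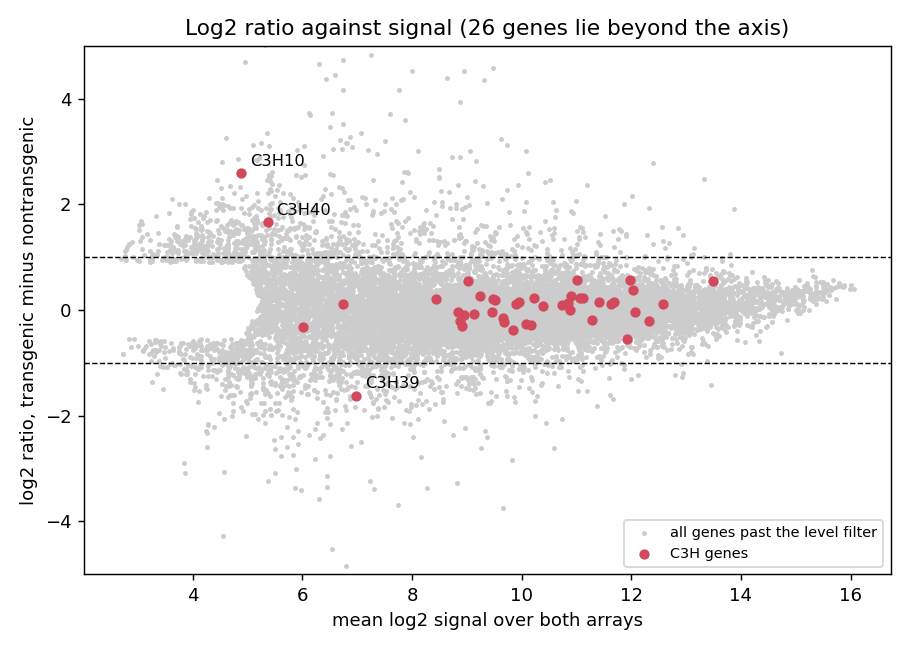
Log2 ratio of transgenic over nontransgenic signal (vertical axis) against the mean log2 signal of both arrays (horizontal axis) for 15192 genes past the level filter (grey) and the 43 C3H genes among them (red), with dashed lines at 2-fold. The vertical axis ends at 5 in either direction, and 26 genes lie beyond it and are not shown. The bright C3H genes lie between -0.54 and 0.58, inside the grey band, and C3H10, C3H40 and C3H39 are the 3 outside the dashed lines.

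The 40 members that were not called had log2 ratios from -0.54 to 0.58, and none of them reached 1.5-fold. At that lower threshold 3 of all 43 members (6.98%) differed, the called ones, beside 23.6% of all genes that passed. At or above the 75th percentile it was 0 of 38 members, beside 13.5% of all genes of that level. The median size of the log2 ratio, regardless of sign, was 0.20 over the 38 bright members and 0.21 over all genes of that level. A log2 ratio within 0.5 of 0 was found for 33 of the 38 (86.8%) and for 82.4% of all genes of that level. With 1 array per group the difference between the family and other genes was not tested.

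The members nearest the 2-fold threshold without reaching it were C3H53, C3H11 and C3H37 on the higher side. C3H53 stood at 11.69 in nontransgenic and 12.27 in transgenic leaves, a log2 ratio of 0.58. C3H11 stood at 10.74 and 11.30, a log2 ratio of 0.57. C3H37 stood at 8.75 and 9.30, a log2 ratio of 0.55. All 3 were brighter on the transgenic array by under 1.5-fold. On the lower side the nearest were C3H60, C3H19 and C3H4, with log2 ratios of -0.54, -0.38 and -0.32. C3H60 is described with the splicing genes, and C3H19 stood at 10.04 and 9.66.

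Signs were mixed. Of the 43 members, 26 had a ratio above 0 (60.5%) and 17 below, while 48.6% of all genes that passed had one above 0. The number above 0 was 25 with the mean over probe sets, 25 of 42 without multi-transcript probe sets, 27 with quantile normalization, 28 with lowess centring and 2 with centring on the hybridisation controls, which shifted all genes down. The median log2 ratio was 0.11 over the members and -0.01 over all genes.

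Among the members with a functional name or a reported role, C3H2, also named OsDOS, encodes a nuclear protein that delays leaf senescence in rice. It stood at 11.33 in nontransgenic and 11.48 in transgenic leaves, a log2 ratio of 0.16. This probe set may hybridise to several transcripts, and the next read 10.01 and 10.03, a log2 ratio of 0.02. C3H12, which has been tied to jasmonate-dependent resistance to bacterial blight in rice, stood at 11.85 and 12.23, a log2 ratio of 0.38. Its brightest probe set may also hybridise to several transcripts, and its next had a log2 ratio of 0.58. C3H46, also named LIC, sets leaf and tiller angle and restrains brassinosteroid responses. Its signal was 8.85 and 8.81, a log2 ratio of -0.04.

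C3H20, also named Ehd4, promotes flowering in rice. It stood at 10.76 in nontransgenic and 11.02 in transgenic leaves, a log2 ratio of 0.26. C3H41 carries the synonym MKRN of makorin, a RING finger protein with CCCH fingers of the kind that attaches ubiquitin. It stood at 11.01 and 11.23, a log2 ratio of 0.22. None of these 5 genes reached 1.5-fold in either direction.

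The splicing factor U2AF, made of a small and a large subunit, marks the end of introns, and the small subunit carries CCCH fingers. The small-subunit gene C3H60, or U2AF35A, stood at 12.19 in nontransgenic and 11.65 in transgenic leaves, a log2 ratio of -0.54, the lowest among the uncalled members. The other small-subunit gene, U2AF35B or C3H38, is one of those without a probe set. The large-subunit genes, chosen after the members' values were seen, had smaller ratios. U2AF65A stood at 10.52 and 10.47, and U2AF65B at 11.78 and 11.60.

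The 8 brightest members were C3H12, C3H53 and C3H60, whose values stand beside their roles or ratios, and C3H33, C3H54, C3H35, C3H27 and C3H63. C3H33 had the highest mean signal, at 13.22 in nontransgenic and 13.77 in transgenic leaves, a log2 ratio of 0.55. Its other probe set read 13.42 and 13.41, a log2 ratio of -0.01, so the probe sets of this gene did not give 1 answer. Both may hybridise to several transcripts, as the array maker marks them. C3H54 stood at 12.53 and 12.63, C3H35 at 12.42 and 12.22, C3H27 at 12.10 and 12.05, and C3H63 at 11.61 and 11.77. By these probe sets the last 4 differed by 0.20 or less on the log2 scale. The other probe sets of C3H35 had log2 ratios of -0.28 and 0.02, so they did not share a sign.

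Several passing probe sets were present for 11 members, and all probe sets of a gene had the same sign for 5 of them. For C3H53 the brightest probe set had a log2 ratio of 0.58, the next, at 7.03 and 7.97, had 0.94, and the dimmest, at 4.80 and 5.98, had 1.18. All 3 were brighter on the transgenic array. The dimmest, which passed 2-fold, reached the median on the transgenic array alone, so a higher value there was built into its passing. C3H12 also had 3 probe sets on the same side, with log2 ratios of 0.38, 0.58 and 0.14.

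C3H8 had log2 ratios of -0.19 and -0.24, and C3H55 had -0.04 and -0.25. For C3H11 the probe sets went opposite ways, with 0.57 on the brightest and -0.24 on the next, which may hybridise to several transcripts. The brightest and the next probe set had the same sign in 7 of the 11 members, against 60.1% of 2414 genes with several passing probe sets.

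**Figure D3:**
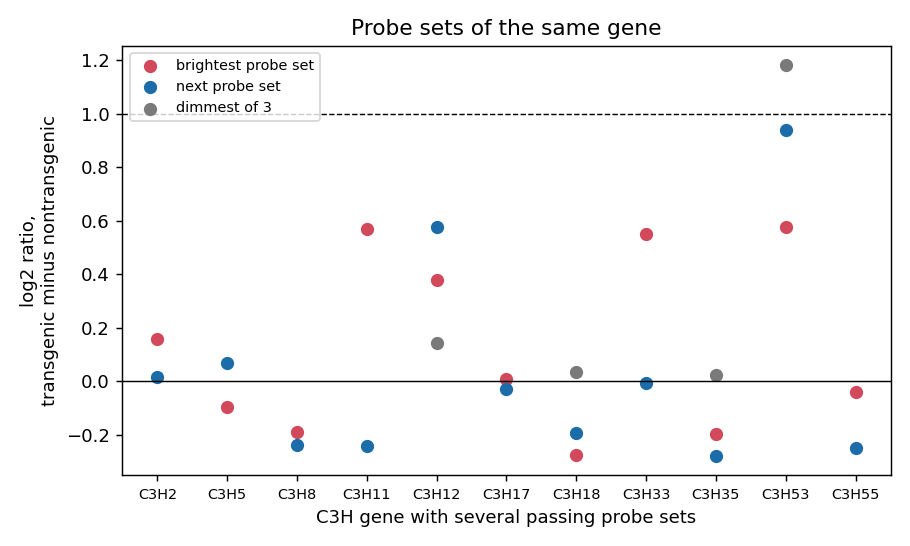
Log2 ratio of transgenic over nontransgenic signal (vertical axis) for each passing probe set of the 11 C3H genes with several (horizontal axis), coloured by rank of brightness, with the dashed line at 2-fold. The 3 probe sets of C3H53, at 0.58, 0.94 and 1.18, share a sign but differ in size. Those of C3H11 (0.57 and -0.24) and C3H33 (0.55 and -0.01) differ in sign.

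The other uncalled members followed the same pattern of bright signals and small ratios. C3H6 stood at 10.96 and 11.18, C3H24 at 10.78 and 10.91, C3H13 at 10.69 and 10.79, C3H32 at 11.56 and 11.68 and C3H31 at 10.35 and 10.42. C3H17 was at 10.88 and 10.89. Each of these was slightly brighter on the transgenic array by its brightest probe set. The next probe set of C3H17 went the other way, with a log2 ratio of -0.03.

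Slightly dimmer on the transgenic array were C3H18, at 10.31 and 10.04, C3H49, at 10.21 and 9.95, C3H14, at 9.78 and 9.56, C3H44, at 9.74 and 9.59, and C3H59, at 9.06 and 8.76. C3H15 stood at 8.97 and 8.77 and C3H16 at 9.18 and 9.10, and C3H5 had a log2 ratio of -0.10. These values are of the brightest probe sets. The next probe set of C3H5 went the other way, with a log2 ratio of 0.07. The brightest of C3H18 may hybridise to several transcripts, and its other probe sets had log2 ratios of -0.19 and 0.04. The remaining members C3H25, C3H28, C3H30, C3H45, C3H50, C3H65 and C3H66 had log2 ratios from 0.11 to 0.27.

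Of the 7 measured members that did not pass the filter, 3 (C3H1, C3H23 and C3H43) lay at the floor on both arrays, and no ratio is given for them. C3H47, whose overexpression has been reported to raise drought and salt tolerance in rice, read 0.49 in nontransgenic and 4.78 in transgenic leaves. C3H34 read 0.69 and 5.24. For both, the transgenic signal lay between the floor and the median, so that with this floor the bounds were at least 1.29-fold and at least 1.77-fold higher. C3H3, at 5.04 and 4.44, and C3H9, at 4.95 and 3.01, lay at the floor on the transgenic array alone, at least 1.34-fold and at least 1.26-fold lower with this floor. All signals of these genes were below the brightest reporter probe set of their array (5.99 nontransgenic, 6.54 transgenic). The bounds therefore rest on signals near background and on the floor chosen.

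By position in the reference gene table, C3H22 and C3H23 are direct neighbours. C3H22 passed the filter on both arrays, while C3H23, at 1.23 and 1.07, was at the floor on both. C3H4, C3H5 and C3H6 lie close together, with 3 and 4 genes between them, and had log2 ratios of -0.32, -0.10 and 0.22.

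The A20/AN1 zinc finger genes of the SAP series, another zinc finger family tied to stress, were read for comparison. Of 13 SAP genes 12 passed the filter and 0 were called, beside 10.5% of all genes that passed, a count too small to set the family apart. Their log2 ratios ran from -0.40 to 0.57 with a median of -0.01. SAP17 had the highest ratio, at 6.77 and 7.34, and SAP6 the lowest, at 12.51 and 12.11. The 4 DOF zinc finger genes, plant factors that bind DNA, had log2 ratios from -0.25 to 0.24. Whether these families differ from the C3H genes was not tested.

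For messenger decay, a process in which tandem CCCH proteins take part, the symbols gave 2 genes, and 0 of them were called, beside 10.5% of all genes. PAB1, a poly(A)-binding protein, stood at 11.51 and 10.94, a log2 ratio of -0.58, and the exosome gene RRP46 at 8.61 and 8.97, a log2 ratio of 0.36.

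The 3 ratios were recomputed with other floors, scalings and choices of probe set. C3H39 had a log2 ratio of -1.28 or lower in these. C3H10 had 1.69 or more, with 4.25 when no floor was set and 1.85 with the floor at the median of each array. C3H40 had 1.03 with the floor at the median, and missed 2-fold with the pseudocount and with centring on the hybridisation controls. With the level filter at the 75th percentile none of the 3 genes was kept.

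**Figure D4:**
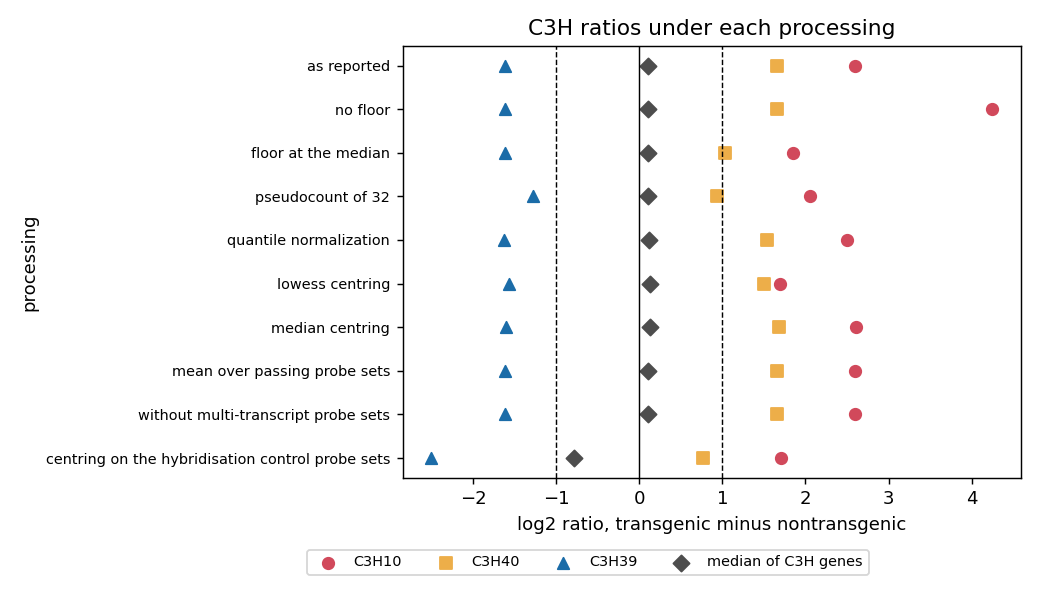
Log2 ratio of transgenic over nontransgenic signal (horizontal axis) of C3H10, C3H40 and C3H39 and the median over the C3H genes past the filter, as reported and under 9 alternatives of floor, scaling and probe set (vertical axis), with dashed lines at 2-fold. In the settings plotted C3H39 lies left of -1 and C3H10 right of 1, and C3H40 lies at 0.93 with the pseudocount and 0.77 with centring on the controls.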

How the data were processed

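Each array gave 57381 probe sets, of which 187 controls of the array maker were set apart. The deposited log2 values are signals from MAS5, according to the submitters' processing notes. The version, the scaling target and any detection calls were not given in the sources used here. A log2 scale follows from the values: unlogged, both arrays had a trimmed mean of 500.1 with 2% removed at each end, so any overall difference in brightness is lost.

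Of the other probe sets, 22436 were tied to 1 gene, 95 to several and 34663 to none by the array's annotation table, with symbols refreshed through RefSeq gene numbers (assembly ASM3414082v1, used for names and neighbours). With 1 array per group no test exists. Members, lists and rules were chosen with earlier results of these data known. All members may be named; full values go to called genes, the brightest, those nearest the threshold, the dim ones and those with a functional name. Counting was tested on simulated data with little noise, in which only bright genes were changed, so dim genes such as the called ones were not covered. The C2H2 list held only 4 SAP genes and was dropped. Protein architecture and promoter motifs were not analysed here. Unmapped sample columns numbered 0. Python 3.11.15, pandas 2.3.3 and statsmodels 0.14.6 (lowess) were used. Alternatives covered floor, level filter, scaling, probe set choice and threshold.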

Additional observations from a re-analysis of the deposited data

How the results depend on the processing

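The counts of 2 members higher and 1 lower, and the median log2 ratio of 0.11, held with no floor, with the floor at the median, without the level filter, at a 1.5-fold threshold, with quantile, lowess or median centring, with the mean over probe sets and with multi-transcript probe sets left out; under these the members' median ranged from 0.10 to 0.13. With the pseudocount, 1 member was higher, because C3H40 fell short. With the level filter at the 75th percentile, 0 were higher and 0 lower, since the called members are dimmer than that. Centring on the hybridisation controls, chosen after the data were seen, moved the median of all genes to -0.90 and that of the members to -0.78, with 1 member higher and 12 lower beside 41.2% of all genes called; relative to all genes the members' median was 0.12 higher, as before. Lowess centring moved the share of higher genes among all called from 57.7% to 43%, and the calls of the members stayed the same. Of 386 single-member ratios recomputed, 340 moved by less than the scatter between probe sets. The 46 others were all 43 ratios under centring on the controls and 3 of C3H10. Many of the 340 could hardly move. A changed floor reaches only genes near it, and a mean over probe sets alters only genes with several. This count therefore does not show how stable the ratios are. The 340 include C3H40 with the pseudocount, where its log2 ratio went from 1.66 to 0.93 and its call was lost. Leaving out an array was not possible, and no paired analysis was possible because each group has 1 array. Restricting members to proteins with a CCCH motif was not run, because no protein sequence was used here. Near the floor, signal over background limits what can be seen.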
